A study of Mus musculus with 22 samples.

Results

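Igf2bp1, Igf2bp2, Igf2bp3, Lin28b, Hmga1, Hmga2 and Arid3a are 7 genes of the fetal programme of blood formation, and they are 7 of the 43430 genes measured here. They were chosen by name, with their levels in these libraries already known. Every member's level and every difference between groups below is therefore a description, and no test of a member is given. All 7 were present in the tables, but 3 of them, Igf2bp3, Hmga1 and Arid3a, reached 1 FPKM in at least 3 libraries of every table and so entered the fit over all genes. FPKM counts the fragments of a gene per kilobase of its length and per unit of sequencing depth. Igf2bp2 was detected below that level, and Igf2bp1, Lin28b and Hmga2 were at 0 in nearly every library.

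RNA was sequenced from thymocytes sorted as CD4+CD8+, called double-positive, an intermediate step in making T cells, from mice with and without E2a. E2a, whose gene symbol is Tcf3, encodes E proteins, transcription factors of lymphocyte development. The 22 libraries formed 7 groups in 3 tables. The first table held 3 VavCre E2aF/F knockouts at 4 weeks of age and 3 E2aF/F controls. The second held 3 LckCre E2aF/F knockouts at 4 weeks and 3 E2aF/F controls. The third held 3 VavCre E2aF/F knockouts at 8 weeks, 4 VavCre E2aF/F knockouts at 8 weeks that had been sublethally irradiated and given wild-type bone marrow 4 weeks earlier, and 3 E2aF/F controls at 8 weeks. All mice carried floxed E2a alleles, and the genotypes of the controls name no Cre. Vav drives Cre across blood cell lineages, stem cells included, whereas Lck drives it in developing T cells. Which cells of the transplanted mice carried CD45.1, the surface allele named for the sort, is not stated in the labels. No label ties a library to an animal, so p-values measure only the spread between these libraries, which may be technical.

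In mouse and human, fetal blood stem and progenitor cells express LIN28B, an RNA-binding protein that blocks maturation of let-7 microRNAs. let-7 microRNAs in turn repress mRNAs through matches to their seed, among them those of HMGA2, the IGF2BP family and ARID3A. As blood formation passes to its adult form, LIN28B falls and let-7 rises. The IGF2BP proteins bind mRNAs, many of them carrying N6-methyladenosine, and stabilise them. HMGA1 and HMGA2 are architectural proteins that bend AT-rich DNA. ARID3A is an AT-rich interaction domain transcription factor, which in mouse is known from B cell development.

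The mature let-7 microRNAs share one seed, and the matches to it are a sequence feature that the choice of genes by name did not read from the files. In RefSeq (GRCm38.p6), 9 distinct mature forms of the family, including miR-98, had the same bases at positions 2 to 8. One is shown, with that seed in capitals. It is encoded here at chr13:48538239-48538260 on the minus strand.
mmu-let-7a-5p: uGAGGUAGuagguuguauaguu

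The complement of the seed, CTACCTC, was searched on the sense strand of 1 annotated 3' UTR for each gene. All 7 genes held at least 1 match, whereas 9.0% of 21027 genes did. The first match of each gene is shown with 15 bases before it and 1 base after it, all in 3' UTRs of GRCm38, with the match in capitals.
Igf2bp3 site 1 (chr6:49086787-49086809, - strand): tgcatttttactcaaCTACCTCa
Igf2bp1 site 1 (chr11:95961778-95961800, - strand): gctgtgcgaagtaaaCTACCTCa
Igf2bp2 site 1 (chr16:22059473-22059495, - strand): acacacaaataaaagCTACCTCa
Lin28b site 1 (chr10:45381022-45381044, - strand): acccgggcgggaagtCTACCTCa
Hmga1 site 1 (chr17:27563277-27563299, + strand): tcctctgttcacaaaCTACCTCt
Hmga2 site 1 (chr10:120364224-120364246, - strand): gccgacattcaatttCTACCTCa
Arid3a site 1 (chr10:79953895-79953917, + strand): aaggcaagtttctttCTACCTCa

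Longer UTRs hold more matches, so each gene was set beside UTRs within 20% of its own length. Hmga2 had 4 matches in 3014 bases, and 0.13% of 2246 such UTRs had as many. Lin28b had 4 matches in 4445 bases, against 0.24% of 1270 UTRs. Igf2bp1 had 4 in 6337 bases, against 0.36% of 563 UTRs. Arid3a had 2 in 3082 bases, against 2.26% of 2210 UTRs. The other 3 genes had 1 match each. Igf2bp3 had 1 match in 2119 bases, where 13.3% of 2784 UTRs had at least 1. Igf2bp2 had its match in 1784 bases (12.05% of 2897 UTRs), and Hmga1 in 1183 bases (8.1% of 2784 UTRs). Several of these mRNAs are established let-7 targets, so the matches are not independent of why the genes are grouped. A match is a description and not a shown site of action.

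E proteins bind the E-box CANNTG and favour CAGCTG and CACCTG, so the promoters of Igf2bp3, Hmga1, Lin28b, Igf2bp2 and Hmga2 were searched for it. The windows were 300 bases long and held the gene start, from RefSeq GRCm38.p6. CANNTG reads the same on both strands. It occurred in 72.3% of 32851 promoters, CAGCTG in 16.3%, CACCTG or its reverse CAGGTG in 20.2% and CACGTG in 7.2%. The Igf2bp3 promoter held 2 E-boxes, both CACGTG, a form bound by MYC among other factors, and 0.59% of promoters held at least 2 of that form. One began 23 bases before the gene start and one 5 bases after it. The Hmga1 promoter held 1 CAGCTG and 1 CATTTG. Both promoters are shown with their E-boxes in capitals, since these are the 2 members with the highest levels.
Igf2bp3 promoter (chr6:49214905-49215204, - strand): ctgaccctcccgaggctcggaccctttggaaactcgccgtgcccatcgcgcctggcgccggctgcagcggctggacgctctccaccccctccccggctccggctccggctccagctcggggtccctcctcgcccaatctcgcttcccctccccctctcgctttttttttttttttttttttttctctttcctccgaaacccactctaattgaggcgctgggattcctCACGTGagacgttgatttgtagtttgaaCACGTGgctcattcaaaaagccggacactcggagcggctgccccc
Hmga1 promoter (chr17:27556324-27556623, + strand): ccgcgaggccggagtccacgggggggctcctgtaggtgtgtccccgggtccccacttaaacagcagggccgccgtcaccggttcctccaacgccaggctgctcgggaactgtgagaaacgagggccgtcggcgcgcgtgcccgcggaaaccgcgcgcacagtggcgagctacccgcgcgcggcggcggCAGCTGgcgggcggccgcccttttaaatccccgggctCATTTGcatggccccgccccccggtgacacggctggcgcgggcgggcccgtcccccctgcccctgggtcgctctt
The Lin28b promoter held 1 CAGATG and 1 CACGTG, and those of Igf2bp2 and Hmga2 held no CANNTG. Promoters of Igf2bp1 and Arid3a were not analysed here. These matches say only which letters are in the window.

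The deletion itself was checked first. Tcf3 had 1.36, 1.39 and 1.15 FPKM in Vav knockouts at 4 weeks, against 7.47, 6.39 and 6.73 FPKM in their controls. It had 1.33, 1.20 and 1.20 FPKM in Lck knockouts, against 7.50, 8.22 and 6.98 FPKM in their controls. At 8 weeks it had 2.13, 1.23 and 2.01 FPKM in Vav knockouts and 1.22, 1.31, 2.32 and 1.21 FPKM in transplanted Vav knockouts, against 7.59, 7.52 and 7.49 FPKM in controls. Every knockout library was below every control library of its table. Transplanted replicate 3, the library at 2.32 FPKM, lay apart from the other 3 of its group. Without it the log2 differences of transplanted Vav knockouts from controls described below were 3.69 for Igf2bp3, 1.05 for Hmga1, 0.59 for Arid3a and 0.71 for Igf2bp2. Low values implied between 5.49 and 37.5 M reads per library (M stands for 1000000), with the lowest in Lck knockout replicate 2.

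The summed level of 10 double-positive thymocyte markers, which include Cd4, Cd8a and Rag1, was checked beside the label of the sort. It was 3030 to 3600 FPKM in Vav knockouts and 4220 to 4370 FPKM in controls at 4 weeks. It was 3900 to 4130 FPKM in Lck knockouts and 4190 to 4450 FPKM in their controls. At 8 weeks it was 1940 to 2250 FPKM in Vav knockouts and 1160 to 3210 FPKM in transplanted Vav knockouts, against 4220 to 4580 FPKM in controls. The 7 markers of progenitors and early thymocytes summed to 14.1 to 31.6 FPKM in Vav knockouts at 4 weeks, against 2.37 to 3.08 FPKM in controls. Il2ra, the interleukin 2 receptor alpha chain, made up most of that sum, at 13.5 to 30.9 FPKM in Vav knockouts and 1.84 to 2.13 FPKM in controls. Kit was lower in those knockouts (0.0202 to 0.0464 FPKM, against 0.143 to 0.238 FPKM in controls), and Cd34 and Hhex were at 0 in all 3 of them. In the Lck table the 7 markers summed to 4.60 to 6.24 FPKM in knockouts and 2.80 to 4.05 FPKM in controls. At 8 weeks they summed to 6.03 to 25.6 FPKM in Vav knockouts and 3.84 to 131 FPKM in transplanted Vav knockouts, against 2.14 to 3.30 FPKM in controls, and Il2ra reached 118 FPKM in a transplanted library. Kit was higher in Vav knockouts at that age (0.117 to 1.29 FPKM, against 0.0718 to 0.0872 FPKM in controls). In transplanted Vav knockouts Kit ran from 0 to 12.1 FPKM, which overlapped the controls. Gamma-delta and innate-like T cell markers, 6 of 7 of them in the tables, summed to 11.8 to 51.7 FPKM in Vav knockouts at 4 weeks, against 2.16 to 2.70 FPKM in controls, and to 1.45 to 3.89 FPKM in Lck knockouts, against 1.81 to 3.31 FPKM in controls. At 8 weeks they summed to 11.6 to 36.5 FPKM in Vav knockouts and 34.3 to 306 FPKM in transplanted Vav knockouts, against 1.21 to 3.15 FPKM in controls. Tcrg-C1 and Cd163l1 made up most of the sums in Vav knockouts of either age, transplanted or not. Zbtb16 overlapped the controls at 4 weeks in Vav mice, and Zbtb16, Sox13 and Tbx21 overlapped them in transplanted knockouts. The other markers of this list lay above the controls in the Vav tables. The part of these marker changes in the levels described next was not tested. In bulk samples, fewer cells of a type and less RNA per cell cannot be told apart.

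Igf2bp3 (ENSMUSG00000029814, GRCm38 chromosome 6, 49085223 to 49214957, minus strand) was the most abundant of the 3 IGF2BP genes. At 8 weeks it had 18.7, 19.7 and 15.9 FPKM in Vav knockouts and 20.4, 9.17, 13.8 and 21.8 FPKM in transplanted Vav knockouts, against 0.380, 0.276 and 0.317 FPKM in controls. No knockout library, transplanted or not, came near a control library. The 8-week controls rested on few reads, about 54, 24 and 54 by the annotated exon length. The ratio of mean FPKM was 55.8 for Vav knockouts over controls and 50.2 for transplanted knockouts over controls. On the log2(FPKM + 1) scale, which understates changes of low genes, the differences were 3.85 (SE 0.271) and 3.64 (SE 0.253). In each of these 2 comparisons, which share their control libraries, Igf2bp3 stood eighth from the highest among 11632 genes (rank 8). It was among the ranked genes only through the knockout libraries, and it was chosen with these differences known. The rank, like that of its difference of effects between ages below, is therefore a description.

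At 4 weeks the same gene had 14.7, 17.0 and 13.8 FPKM in Vav knockouts, against 8.94, 10.2 and 9.65 FPKM in controls. All knockout libraries were above all controls, but the ratio of means was 1.58 and the log2 difference 0.61 (SE 0.088, n = 3 each). In the Lck table it had 4.63, 2.56 and 3.08 FPKM in knockouts, against 4.58, 3.07 and 3.16 FPKM in controls. These groups overlapped, and the log2 difference was -0.07 (SE 0.202), which became 0.08 without control replicate 1 and 0.07 without knockout replicate 2. The knockout effect at 8 weeks exceeded that at 4 weeks by 3.24 (SE 0.323) in the Vav mice, the third highest of 10684 genes (rank 3). The Vav effect exceeded the Lck effect at 4 weeks by 0.68 (SE 0.235). Transplanted against untransplanted Vav knockouts differed by -0.21 (SE 0.253) with overlapping libraries, which became 0.02 without transplanted replicate 2.

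**Figure D1:**
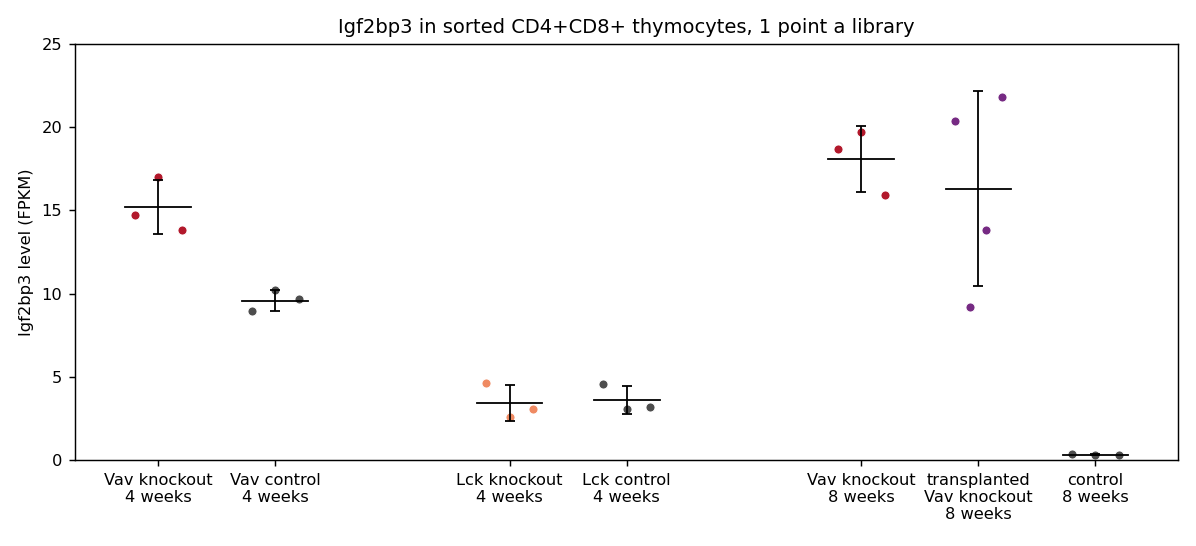
Igf2bp3 level in FPKM (vertical axis, linear from 0) in each of the 22 libraries, by group, with the group mean (horizontal bar) and SD (error bar). The 7 knockout libraries at 8 weeks lie between 9.17 and 21.8 FPKM and the 3 controls of that age at or below 0.380 FPKM, while at 4 weeks controls lie between 3.07 and 10.2 FPKM.

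Set side by side, the controls differed more in Igf2bp3 than the Vav knockouts did. It averaged 0.324 ± 0.0525 FPKM in controls at 8 weeks, 9.58 ± 0.617 FPKM in Vav controls at 4 weeks and 3.60 ± 0.849 FPKM in Lck controls at 4 weeks (SD, n = 3 each). The Vav knockouts averaged 18.1 ± 1.97 FPKM at 8 weeks and 15.2 ± 1.65 FPKM at 4 weeks. The difference of control means between 8 weeks and Vav 4 weeks was -3.00 on the log2 scale, the lowest of 11278 genes, where 1.76% of genes differed by 1 or more. The 11278 genes had a mean of 1 FPKM or more in at least 1 control group. Igf2bp3 was among them only through the 4-week controls, where it was high, and it was chosen with these levels known. Its ranks among these genes are therefore descriptions. For Vav knockouts the difference of 8 weeks minus 4 weeks was 0.24. Both sets of 4-week controls have the same genotype and age in the labels, yet their means differed by 1.22 (Vav minus Lck controls), rank 13 from the highest of 11278 genes, where 0.58% differed by 1 or more. The tables are separate, and age, table and any batch cannot be told apart in these values, so none of them was tested.

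**Figure D2:**
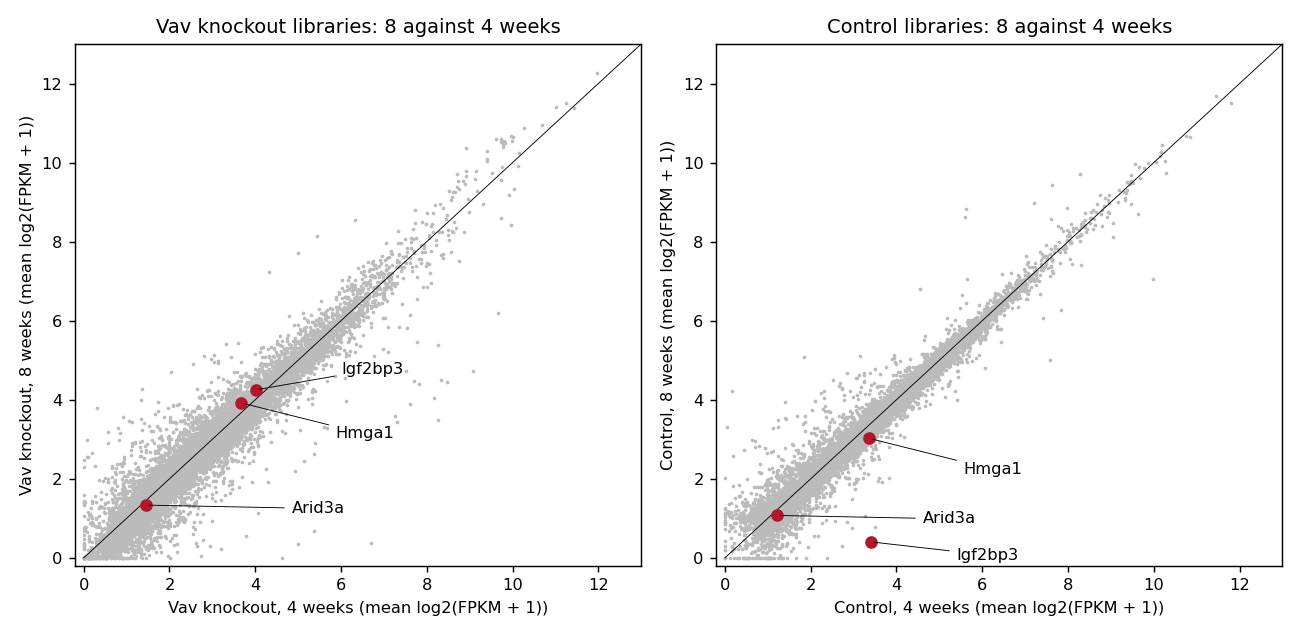
Mean log2(FPKM + 1) at 8 weeks (vertical) against 4 weeks (horizontal) for 11278 genes (grey points) in Vav knockouts (left) and in controls of the Vav tables (right), with the 3 members that passed the filter in red and the line of equal values. Igf2bp3 lies near the line in knockouts (difference 0.24) and far below it in controls (difference -3.00), while Hmga1 and Arid3a lie near the line in both.

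At 8 weeks none was called (limma adjusted p under 0.05) among the 3 nearest tested genes on each side of Igf2bp3. Tra2a, a splicing factor gene 29.0 kb beyond its start, averaged 67.8 FPKM in Vav knockouts and 81.1 FPKM in controls at 8 weeks, a log2 difference of -0.26 (SE 0.179, adjusted p = 0.36 in limma). Ccdc126 and Fam221a on the same side had differences of 0.06 (SE 0.145, adjusted p = 0.804) and 0.42 (SE 0.199, adjusted p = 0.196) by the same limma fit. None of these 3 was called (adjusted p under 0.05) in any of the 4 comparisons of knockout with control. On the other side Tmem176a, Tmem176b and Gimap3 lay 238.2 to 314.4 kb away. At 4 weeks in Vav mice, Tmem176a fell by 0.87 and Tmem176b fell by 0.90 while Gimap3 rose by 1.68 (limma adjusted p = 0.0034, 0.00268 and 0.00202), and none was called at 8 weeks. Their log2 differences in Vav knockouts at 8 weeks had wide errors, at -0.01 (SE 0.888), 0.34 (SE 1.026) and -0.36 (SE 0.751) in the same order. The 6 neighbours were named for their position. Malsu1, on the opposite strand within the Igf2bp3 gene, had 0.995 to 2.14 FPKM over all libraries. The strand setting of the counting is unknown here, so its reads and those of Igf2bp3 cannot be told apart where they overlap.

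Igf2bp2 (chromosome 16, 22059009 to 22163299, minus strand), an IGF2BP also made in many adult tissues, stayed below the filter and was not tested. At 8 weeks it had 0.275, 0.470 and 0.60 FPKM in Vav knockouts and 0.690, 0.455, 0.421 and 1.32 FPKM in transplanted Vav knockouts, against 0.136, 0.046 and 0.0893 FPKM in controls. All 7 knockout libraries were above all 3 controls, with the highest value in transplanted replicate 4. The ratios of mean FPKM were 4.96 for Vav knockouts and 8.00 for transplanted knockouts over the same controls. At 4 weeks it had 0.157, 0.288 and 0.175 FPKM in Vav knockouts, against 0.102, 0.103 and 0.0887 FPKM in controls, a ratio of 2.11 without overlap. In the Lck table it had 0.175, 0.0404 and 0.171 FPKM in knockouts, against 0.211, 0.180 and 0.159 FPKM in controls, and the groups overlapped. These levels correspond to between about 1.64 and 158 reads a library. Unlike those of Igf2bp3, the control levels at 4 and 8 weeks lay within 0.046 and 0.211 FPKM.

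Igf2bp1 (chromosome 11, 95957163 to 96005940, minus strand), the family member known mainly from embryonic tissue, was detected in 2 of 22 libraries. It had 0.00283 FPKM in Vav knockout replicate 2 at 4 weeks and 0.0161 FPKM in Lck knockout replicate 2, and was listed at 0 elsewhere. Both values equal the smallest amount seen, about 1 read. A count of 0 allows up to 3 reads, which for this gene would be between 0.00827 and 0.0286 FPKM in the libraries at 0. These limits are approximate, since the gene lengths used for the FPKM are not given, and they cover counting error only.

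Lin28b (chromosome 10, 45376620 to 45486395, minus strand), the regulator that blocks let-7, was detected in Vav controls at 4 weeks. It was listed at 0 in all 3 Vav knockouts at 4 weeks, against 0.00543, 0.0104 and 0.0148 FPKM in their controls. After allowance for depth, the 3 control values stood near 1, 2 and 3 times the smallest of them, as 1, 2 and 3 reads would. It was at 0 in the other 16 libraries. A count of 0 allows 3 reads, or 0.00928 to 0.0106 FPKM in the Vav knockouts at 4 weeks, so the lowest control value lay under these limits, the middle one within their range and the highest above them. With so few reads no fold is given. Its paralogue Lin28a was likewise at 0.0190 FPKM or less in every library.

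Hmga2 (chromosome 10, 120361275 to 120476469, minus strand), the architectural protein of fetal stem cells, was detected in 2 libraries. It had 0.0197, 0.0167 and 0 FPKM in Lck knockouts, against 0 in their 3 controls, and it was at 0 in the other 16 libraries. The limit for a count of 0 was 0.0271 to 0.0302 FPKM in the Lck controls, so a difference was not detectable at this depth.

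Hmga1 (chromosome 17, 27556497 to 27563674, plus strand), the family member common in dividing cells, was present in every library. At 8 weeks it had 15.1, 13.7 and 13.6 FPKM in Vav knockouts and 21.2, 15.7, 7.89 and 11.9 FPKM in transplanted Vav knockouts, against 7.31, 7.08 and 6.98 FPKM in controls. Every knockout library was above every control library, although transplanted replicate 3 was close to them. The log2 differences were 0.90 (SE 0.275) and 0.82 (SE 0.257), and the ratio of means was 1.99 in both. At 4 weeks it had 12.4, 11.8 and 11.2 FPKM in Vav knockouts, against 8.61, 9.94 and 9.50 FPKM in controls, a log2 difference of 0.31 (SE 0.069) without overlap. In the Lck table it had 7.98, 7.79 and 8.29 FPKM in knockouts, against 7.03, 8.12 and 7.10 FPKM in controls, which overlapped (0.10, SE 0.064).

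Hmga1b on chromosome 11 is a near copy of Hmga1, and the counting could have split reads between them. It averaged 101 ± 3.65 FPKM in Vav knockouts and 97.8 ± 37.5 FPKM in transplanted Vav knockouts at 8 weeks, against 45.4 ± 0.534 FPKM in controls (SD, n = 3, 4 and 3). Its log2 differences were 1.14 (SE 0.317) and 0.99 (SE 0.297) at 8 weeks, 0.47 (SE 0.093) for Vav and 0.09 (SE 0.041) for Lck at 4 weeks. The values of Hmga1 are uncertain to the extent that reads moved between the 2 genes. AI413582 on the opposite strand of Hmga1 had 1.67 to 5.04 FPKM over all libraries.

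Arid3a (chromosome 10, 79927043 to 79955018, plus strand), the transcription factor of the set, was low throughout. At 4 weeks it had 1.95, 1.61 and 1.62 FPKM in Vav knockouts, against 1.27, 1.36 and 1.30 FPKM in controls, a log2 difference of 0.24 (SE 0.082) without overlap. In the Lck table it had 1.06, 1.07 and 1.17 FPKM in knockouts, against 1.30, 1.16 and 1.27 FPKM in controls, with overlap and the opposite sign (-0.10, SE 0.082). At 8 weeks it had 1.62, 1.15 and 1.85 FPKM in Vav knockouts and 2.69, 2.03, 1.64 and 1.83 FPKM in transplanted Vav knockouts, against 1.08, 1.25 and 0.990 FPKM in controls. The untransplanted knockouts overlapped the controls (0.26, SE 0.171) and the transplanted ones did not (0.52, SE 0.160). Arid3a lies 0.454 Mb from Tcf3 on the same chromosome, and the controls carried the floxed Tcf3 alleles too.

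**Figure D3:**
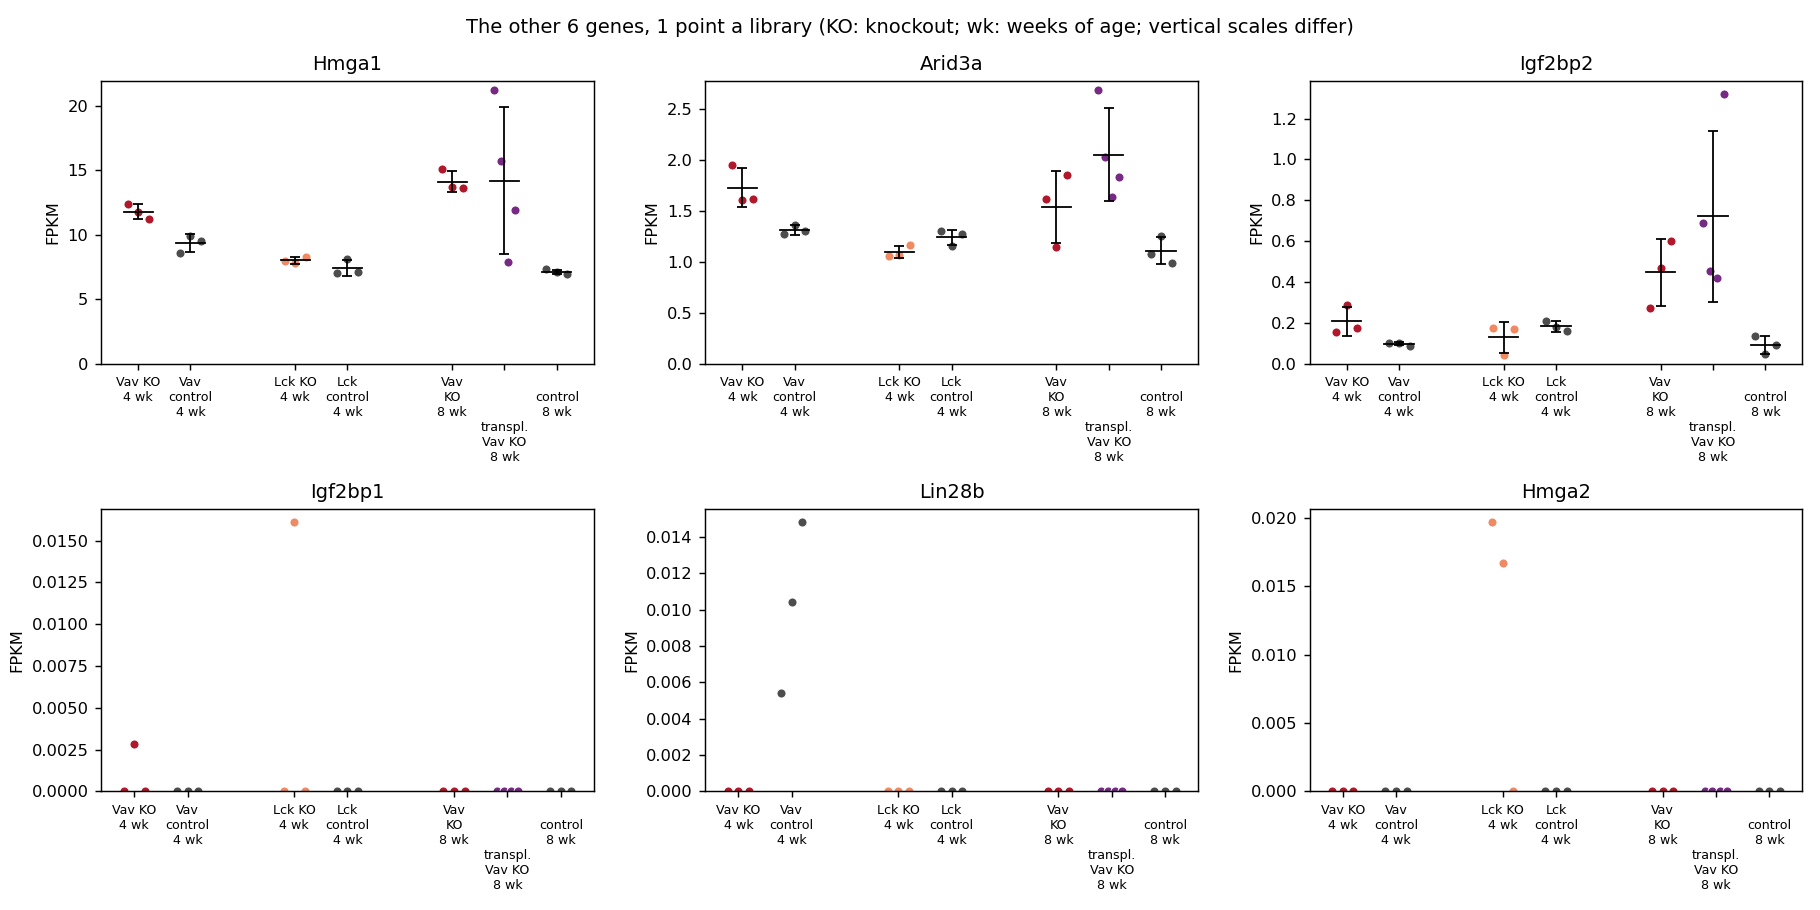
Level in FPKM (vertical axes, linear from 0, with scales that differ) of the other 6 genes in each of the 22 libraries, by group, with means (horizontal bars) and SD (error bars) for the upper 3 genes. Hmga1, Arid3a and Igf2bp2 reach their highest values in transplanted Vav knockouts (21.2, 2.69 and 1.32 FPKM), while Igf2bp1, Lin28b and Hmga2 do not exceed 0.0197 FPKM.

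In limma with Benjamini-Hochberg adjustment over all tested genes, called means an adjusted p under 0.05. The members were chosen with these contrasts known, so their own calls are not counted here, and at 8 weeks Igf2bp3 passed the filter only through the knockout libraries. Of 10828 genes, 7.63% were called higher and 6.08% lower in Vav knockouts than in controls at 4 weeks. Scaling the libraries to a common FPKM sum gave 603 genes called higher and 1003 lower, in place of 826 and 658. In Lck knockouts 0.201% of 10946 genes were called higher and 0.804% lower. At 8 weeks 4.65% of 11632 genes were called higher and 4.45% lower in Vav knockouts, and 4.59% higher and 4.6% lower in transplanted Vav knockouts. Between transplanted and untransplanted Vav knockouts 0% of genes were called higher and 0% lower. Limma gave 681 of 11632 genes an unadjusted p under 0.05 there, and with no filter on low genes it called 3. For the difference of Vav effects between 8 and 4 weeks 0.0468% of 10684 genes were called higher and 0.0749% lower, and for the Vav effect minus the Lck effect at 4 weeks 1.65% of 10541 genes were called higher and 1.65% lower.

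Counted by libraries that did not overlap, all 3 members past the filter were above the controls in Vav knockouts at 4 weeks, where 19.2% of genes were. In Lck knockouts 0 of 3 were, where 11.7% of genes were. At 8 weeks 2 of 3 were in Vav knockouts, where 28.9% of genes were, and 3 of 3 in transplanted Vav knockouts, where 11.5% of genes were. The choice of members rested on these contrasts, so nothing is read from the counts.

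The members that were detected varied together across libraries once the control mean of each table was subtracted. Pearson's r over 22 libraries on the log2 scale was 0.874 for Igf2bp2 with Igf2bp3, 0.854 for Igf2bp3 with Hmga1, 0.828 for Hmga1 with Arid3a, 0.77 for Igf2bp3 with Arid3a, 0.759 for Igf2bp2 with Arid3a and 0.73 for Igf2bp2 with Hmga1. The libraries share groups and tables, so r mostly restates the differences between groups and carries no p. Among 8990 genes searched, those most like Igf2bp3 were Cpsf1 (r = 0.977), a subunit of the mRNA cleavage and polyadenylation machinery, mt-Nd5 (0.970) and mt-Nd6 (0.965), subunits of mitochondrial complex I, Prickle1 (0.970), a planar polarity protein, and Taf1d (0.955), a factor of ribosomal RNA transcription. Those most like Hmga1 were Rps7 (0.982), a ribosomal protein, Rrs1 (0.981), a ribosome assembly factor, and Hmga1b (0.981). Those most like Arid3a were Sgk1 (0.917), a kinase, and the transcriptional regulators Lmo4 (0.907) and Irf2bp2 (0.903). Prickle1 averaged 15.5 FPKM in Vav knockouts and 12.1 FPKM in transplanted Vav knockouts, against 1.50 FPKM in controls at 8 weeks.

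Around the members, 149 other genes of 10 lists were followed, covering let-7 control, let-7 targets, fetal blood and imprinted growth genes, IGF signalling, IGF2BP partners and targets, the N6-methyladenosine machinery and the HMG and ARID families. In Vav knockouts at 4 weeks 6 of 100 tested genes rose and 6 fell, with a median log2 difference of -0.02 beside -0.01 for all genes. In Lck knockouts 0 of 100 rose and 1 fell (21 at an unadjusted p under 0.05), with medians of 0.01 and 0.02. In Vav knockouts at 8 weeks 5 of 101 rose and 4 fell (medians -0.11 and -0.005), and in transplanted Vav knockouts 4 rose and 4 fell (medians -0.02 and -0.01). Of all tested genes at 4 weeks, 7.63% rose and 6.08% fell in Vav knockouts, and 0.201% rose and 0.804% fell in Lck knockouts. The shares at 8 weeks were 4.65% and 4.45% in Vav knockouts and 4.59% and 4.6% in transplanted ones. Leaving out any 1 library of the 8-week comparison of Vav knockouts with controls left 1 to 4 of its 9 calls, and leaving out transplanted replicate 3 gave 32 calls in place of 8.

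Of 17 genes of let-7 control and microRNA processing, 14 were tested. Drosha, the nuclease that cuts primary microRNAs, averaged 8.78 ± 0.158 FPKM in Vav knockouts and 6.76 ± 1.64 FPKM in transplanted Vav knockouts at 8 weeks, against 3.54 ± 0.208 FPKM in controls (SD, n = 3, 4 and 3). Its log2 differences were 1.11 (limma adjusted p = 0.00734) and 0.75 (adjusted p = 0.0257), and at 4 weeks 0.41 in Vav knockouts (adjusted p = 0.00825). Each of these calls was lost without some libraries: Vav control replicates 2 or 3 at 4 weeks, control replicates 1 or 2 for Vav knockouts at 8 weeks, and any control or transplanted replicates 1 or 4 for transplanted knockouts. Tarbp2, a partner of DICER, rose in transplanted knockouts (0.49, limma adjusted p = 0.0449), a call lost under 9 of 12 alternatives. The other 12 tested genes of the list were called in no comparison of knockout with control. The let-7 precursor genes did not pass the filter, and of the 10 found in the tables the highest value was 2.03 FPKM, for Mirlet7i. Precursor reads in a library of long RNA do not measure mature let-7, which was not analysed here.

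Of 23 other let-7 target genes, 18 were tested in the Vav tables. Myc, the growth transcription factor, had 16.5, 13.7 and 15.8 FPKM in Vav knockouts and 23.0, 21.3, 1.47 and 9.34 FPKM in transplanted Vav knockouts at 8 weeks, against 0.945, 0.734 and 0.787 FPKM in controls. All 7 knockout libraries were above the controls, with transplanted replicate 3 lowest. Its log2 differences were 3.16 and 2.57 (limma adjusted p = 0.0277 and 0.0436). The first call was lost under 8 of 12 alternatives, among them leaving out any 1 control or knockout library. The second was lost under 8 of 13, among them leaving out any 1 control library or transplanted replicates 1, 2 or 4. At 4 weeks Myc rose by 1.51 in Vav knockouts (limma adjusted p = 0.00468), a call kept under every alternative that left it in the test. E2f2, a cell cycle transcription factor, fell in all 4 comparisons of knockout with control, with log2 differences of -0.95 and -0.40 in Vav and Lck knockouts at 4 weeks and of -1.88 and -2.71 in Vav and transplanted Vav knockouts at 8 weeks (limma adjusted p = 0.0179, 0.0149, 0.0384 and 0.00628). The call in transplanted knockouts held under every alternative, and the other 3 were each lost when any 1 control library was left out. Counting all alternatives, they were lost under 5 of 12 (Vav at 4 weeks), 6 of 12 (Lck) and 7 of 12 (Vav at 8 weeks). At 4 weeks in Vav knockouts Ccr7, a chemokine receptor, rose by 0.64, a call held under every alternative that left it in the test, the kinase gene Map4k3 fell by 0.49, a call lost without any 1 control library, and the death receptor gene Fas fell by 0.42. Fas was named after its value was seen. The list thus held calls in both directions, with 2 higher and 3 lower of 18 at 4 weeks.

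Of 16 IGF2BP partners, all 16 were tested. Pabpc1, the cytoplasmic poly(A)-binding protein, averaged 315 ± 66.1 FPKM in Vav knockouts and 279 ± 118 FPKM in transplanted Vav knockouts at 8 weeks, against 79.4 ± 4.62 FPKM in controls. Its log2 differences were 1.95 and 1.67 (limma adjusted p = 0.0159 and 0.0205), and 0.92 in Vav knockouts at 4 weeks (adjusted p = 0.00176). Its 4-week call held under every alternative, and both 8-week calls were lost when any 1 control library was left out. That in Vav knockouts was also lost without knockout replicates 1 or 3, and that in transplanted knockouts with a replicate block. Pabpc4, a relative of Pabpc1, rose by 0.43 at 4 and 1.08 at 8 weeks in Vav knockouts, calls likewise lost without any 1 control library. The 8-week call for Pabpc4 was lost under 8 of 12 alternatives, among them leaving out any 1 knockout library. Ybx3, a cold shock domain RNA-binding protein, fell by 1.81 in transplanted knockouts (limma adjusted p = 0.0126), a call lost without any 1 control library. Of 16 reported IGF2BP targets, 10 were tested, and besides Myc the survival gene Bcl2 was called, lower by 1.05 in Vav knockouts at 8 weeks (log2 difference -1.05, limma adjusted p = 0.0305). Leaving out any 1 library of that comparison ended the call for Bcl2. Of the 17 N6-methyladenosine writers, erasers and readers, 0 were called by limma in any comparison, with between 0 and 4 at an unadjusted p under 0.05.

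Of 13 IGF signalling genes, 4 were tested at 4 weeks and 5 at 8 weeks. Igf1r, the IGF1 receptor, had 2.45, 3.78 and 2.34 FPKM in Vav knockouts at 4 weeks, against 6.01, 4.70 and 4.82 FPKM in controls (log2 difference -0.69, limma adjusted p = 0.0339), a call lost without any 1 control library or without knockout replicates 1 or 3. Igfbp7, a secreted IGF-binding protein, had 3.24, 2.39 and 13.2 FPKM in Vav knockouts at 8 weeks and was listed at 0 in all 3 controls. It was called (limma adjusted p = 0.0419), but the call was lost under 8 of 11 alternatives, and no fold against 0 is given. Of 19 fetal blood and imprinted growth genes, 5 were tested at 4 weeks. Plag1, a zinc finger regulator of growth genes, had 0.971, 0.895 and 0.857 FPKM in Vav knockouts, against 2.45, 1.95 and 2.12 FPKM in controls (log2 difference -0.73, limma adjusted p = 0.0049), and this call held under every alternative that kept it in the test.

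Among the relatives of Arid3a, Arid3b averaged 3.28 ± 0.0691 FPKM in Vav knockouts at 4 weeks and 4.89 ± 0.309 FPKM in controls (SD, n = 3 each), a log2 difference of -0.46 (limma adjusted p = 0.00684) opposite in sign to that of Arid3a and called under every alternative that left it in the test. Kdm5b, a histone demethylase with an ARID domain, averaged 1.64 ± 0.253 FPKM in Vav knockouts and 2.16 ± 1.18 FPKM in transplanted Vav knockouts at 8 weeks, against 9.08 ± 0.595 FPKM in controls. Its log2 differences were -1.94 and -1.74 (limma adjusted p = 0.00294 and 0.00308), and both calls held under every alternative that left it in the test. Kdm5c fell by 0.67 in Vav knockouts, and Arid1b fell by 0.48 in transplanted knockouts, both lost without any 1 control library. The call for Kdm5c was also lost without knockout replicates 1 or 3, and that for Arid1b with a replicate block. Among the HMG genes Hmgxb3 rose by 0.31 in Vav knockouts at 4 weeks, a call lost under 7 of 12 alternatives.

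**Figure D4:**
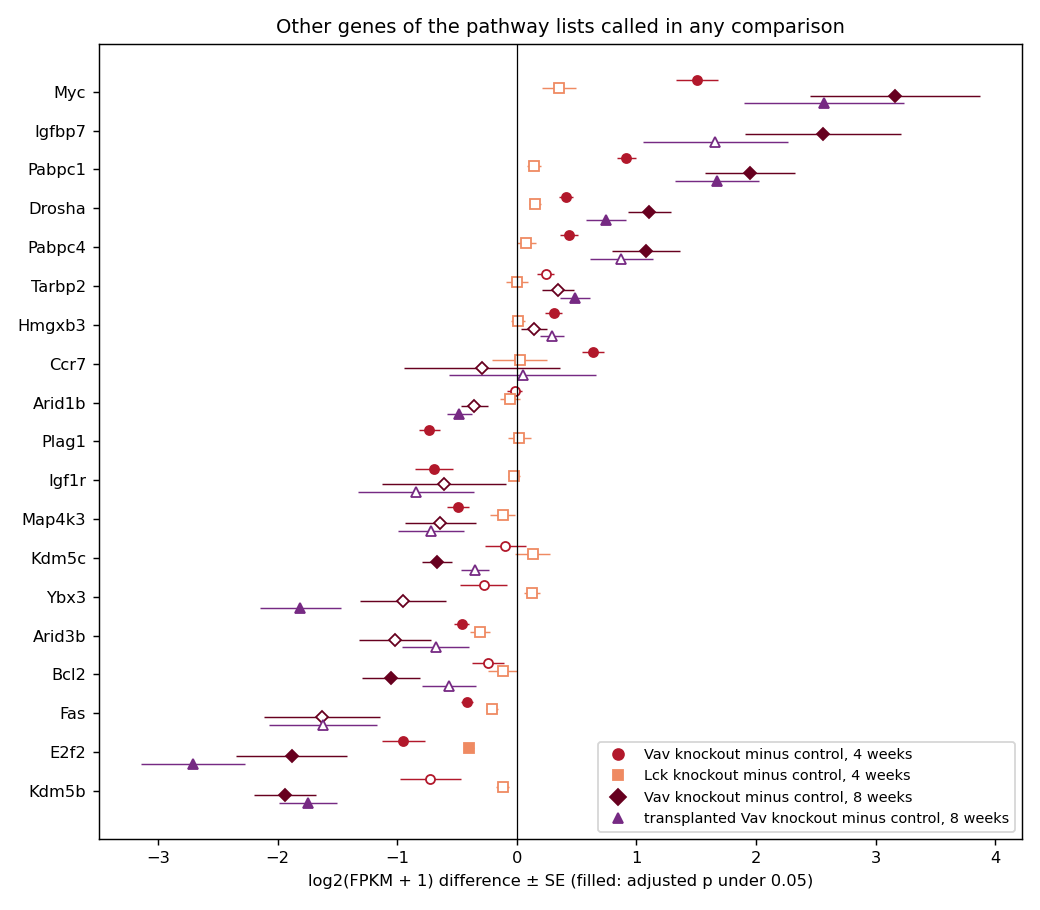
Difference in log2(FPKM + 1) (horizontal axis, knockout minus control, with the SE as error bar) of the 19 genes of the pathway lists called in at least 1 comparison of knockout with control, ordered by the 8-week Vav difference, with genes not tested at 8 weeks placed by their values there. Filled symbols have an adjusted p under 0.05, and Myc, Pabpc1 and Drosha are filled in all 3 comparisons of Vav mice and open in the Lck comparison.

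Myc, Pabpc1, Drosha and Tarbp2 lie on chromosome 15, whose genes as a whole were higher in the Vav knockouts. The median log2 difference of tested genes on chromosome 15 was 0.25 at 4 weeks, 0.55 at 8 weeks and 0.47 in transplanted knockouts, beside -0.02 elsewhere in each, and 0.03 beside 0.02 in Lck knockouts. Of the pathway genes that rose, 3 of 6, 3 of 5 and 4 of 4 lay on that chromosome, which held between 3.88% and 3.97% of tested genes. Per library, the median over chromosome 15 relative to the rest was between 0.229 and 0.629 in the 10 Vav knockout libraries and between -0.026 and 0.024 in the 6 controls of their tables. Prickle1 and Cpsf1, among the genes most like Igf2bp3, also lie on chromosome 15, whereas all 7 members lie on other chromosomes. The part of this chromosome-wide difference in the values of single genes was not tested.

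At 4 weeks the list genes were also tested for unequal Vav and Lck effects, in a fit of 12 libraries. Myc differed by 1.15 (SE 0.238, limma adjusted p = 0.0262), Pabpc1 by 0.78 (SE 0.095, adjusted p = 0.0023) and Plag1 by -0.75 (SE 0.120, adjusted p = 0.00838). The call for Myc was lost without any 1 Vav control library, without Lck control replicates 1 or 2 and without Lck knockout replicates 2 or 3. No library left out ended those for Pabpc1 or Plag1, but that for Plag1 was lost with a replicate block (limma adjusted p = 0.0522). These were 3 of 99 tested, with 25 at an unadjusted p under 0.05. For the Vav effect at 8 minus that at 4 weeks, limma called 0 of 99 list genes, with 9 at an unadjusted p under 0.05, and for transplanted against untransplanted Vav knockouts 0 of 101, with 7.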

How the data were processed

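Per the labels' protocols, the libraries were NuGEN Ovation Ultralow preparations of RNA from RNeasy columns. The authors deposited FPKM values per gene in 3 tables. The build mm10 and the tools STAR, DESeq2, HTSeq 0.6.1 and Trimmomatic 0.33 are named, per the submitters' processing notes. Gene lengths, annotation and strand setting are not stated.

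The members and the gene lists were chosen with earlier results of these data known. Of 43430 genes, 42462 matched a symbol in the GENCODE annotation. Columns were matched by name, with 0 unused, and no pair of the 22 libraries was identical (0 pairs, highest correlation 0.9968). FPKM summed to 198963 to 250725 a library. Read totals were inferred from low values of 22765 genes with 1 transcript, of which 90.6% to 95.5% were whole reads within 0.03. Other genes lack the needed lengths, so no count model was run.

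limma-trend (limma 3.58.1, R 4.3.3) was run on log2(FPKM + 1) for genes reaching 1 FPKM in at least 3 libraries of the table, with Benjamini-Hochberg adjustment over all tested genes and a threshold of 0.05. Each 4-week table was fitted alone and the 8-week table as 1 fit of 3 groups. Differences of effects used an interaction term with the table as a covariate. The code was tested on simulated data. The alternatives changed the pseudocount (0.1), the filter (none, or a mean of 5 FPKM) or the scaling (a common sum, median of ratios), added a replicate block, or left out each library.

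Named list genes are, per comparison, up to 4 called genes a list, any called in 3 or more comparisons, and up to 5 for differences of effects. Similar genes are 5 for Igf2bp3 and 3 for each other member past the filter, by Pearson's r, leaving out predicted genes, pseudogenes and receptor segments. Other marker lists covered B cell, myeloid, erythroid and stromal genes. B cell markers summed to 69.0 to 137 FPKM in knockouts of the Vav tables and 162 to 214 FPKM in their controls, myeloid to 1.72 to 20.5 and 0.693 to 3.59 FPKM, erythroid to 3.44 to 72.6 and 6.19 to 30.7 FPKM, and stromal to 11.3 to 15.0 and 8.58 to 10.7 FPKM. Pecam1 alone made up most of the stromal sum. Epcam, of the same list, was lower in Vav knockouts at 4 weeks (0.261 to 0.317 FPKM, against 1.23 to 1.29 FPKM in controls).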

Additional observations from a re-analysis of the deposited data

Results flagged for a closer look

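Tcf3 in the transplanted Vav knockouts had 1.21, 1.22, 1.31 and 2.32 FPKM, and the value of replicate 3, 2.32 FPKM, lay apart from the other 3. Its gap to the nearest value was 0.909 of the range of the group, above Dixon's critical value for 4 samples, which chance exceeds in about 1 in 20 groups. The same library had the lowest Hmga1 of its group (7.89 FPKM) and the lowest Myc (1.47 FPKM), while its Igf2bp3 (13.8 FPKM) lay within the group.

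The effect of the deletion at 4 weeks differed between Vav and Lck mice for 3 list genes, by 1.15 for Myc (SE 0.238, limma adjusted p = 0.0262), 0.78 for Pabpc1 (SE 0.095, limma adjusted p = 0.0023) and -0.75 for Plag1 (SE 0.120, limma adjusted p = 0.00838). Myc was higher in 3 of 3 Vav knockouts than in their controls, as was Pabpc1, and Plag1 was lower in 3 of 3. For Igf2bp2, which did not pass the filter, every Vav knockout library was above the mean of its controls and every Lck knockout library was below the mean of its own. The Lck knockouts overlapped their controls, however, and the lowest of them, at 0.0404 FPKM, rested on about 1.64 reads. As a member, Igf2bp2 was chosen with these values known. Its difference of effects was 0.20, and this difference was not tested.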

How the results depend on the processing

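Of 1573 recomputed values of list genes, 1434 kept their direction and their side of the threshold, 127 lost the call and 12 gained one. The 1573 include results that were not called as reported and so could not lose a call. Their total therefore understates how often a call was lost. Among called results, losses ran from 0 of 12 alternatives for Pabpc1 in Vav knockouts at 4 weeks to 9 of 12 for Tarbp2 in transplanted knockouts. The log2 difference of Igf2bp3 ranged from 0.529 to 0.67 for Vav at 4 weeks, from 3.774 to 5.425 at 8 weeks and from 3.48 to 5.199 in transplanted knockouts, the upper ends of the 2 ranges at 8 weeks with a pseudocount of 0.1. For Lck it ranged from -0.258 to 0.076. A mean of 5 FPKM gave 7, 5 and 1 calls of list genes for Vav at 4 weeks, transplanted knockouts and the Vav minus Lck effect (12, 8 and 3 as reported), and 927, 653 and 575 calls of all genes for Vav at 4 weeks, Vav at 8 weeks and transplanted knockouts (1484, 1059 and 1069 as reported). With no filter 63 genes were called for Lck (110 as reported) and 3 for transplanted against untransplanted knockouts (0 as reported). A common FPKM sum changed the split of calls for Vav at 4 weeks to 603 higher and 1003 lower (826 and 658 as reported), for list genes to 5 and 12 (6 and 6), for Lck to 4 and 87 (22 and 88), and for list genes of transplanted knockouts to 3 and 5 (4 and 4).

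Replicate numbers recur across groups, and the labels do not say whether same-numbered libraries were paired. Their deviations from the group means correlated at -0.109 to 0.181, which cannot settle whether they were. The reported fits treat the libraries as unpaired. A replicate block gave 894, 4, 568 and 568 calls of all genes for Vav at 4 weeks, Lck, Vav at 8 weeks and transplanted knockouts, and 0 and 3 calls of list genes for Lck and transplanted knockouts.

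Leaving out 1 library at a time gave 5 to 19 calls of list genes and 490 to 1560 of all genes for Vav at 4 weeks, 0 to 2 and 2 to 83 for Lck, 1 to 4 and 142 to 482 for Vav at 8 weeks, 2 to 32 and 199 to 3814 for transplanted knockouts, 0 and 0 to 5 for transplanted against untransplanted knockouts, and 1 to 5 list genes for the Vav minus Lck effect. The cause of these changes was not tested. Depth limits Igf2bp1, Lin28b and Hmga2, whose values rest on few reads.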
